A study of Mus musculus with 8 samples.

Results

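The 36 genes described here code for proteins that find and mend broken, crosslinked or mispaired DNA in mouse T cells. They were taken by name from a table of 18138 genes: every row whose name starts with Fanc, and 33 listed names of recombination, mismatch repair, checkpoint and related genes. There were 7 rows that began with Fanc, 4 listed names (Rbbp8, Atr, Atrip and Mdc1) were not found in the table, and E130016E03RIK is the table's name for Rad54b. The table writes names in capitals (RAD54L, MSH6, H2AFX for H2ax), and current mouse symbols are used below. The RNA came from OT-1 cells, CD8+ T cells of a transgenic mouse line that all carry 1 T cell receptor, specific for an ovalbumin peptide on a class I molecule. In the cB group, the T cells had been cultured for 24 h with B cells activated through CD40, and in the DC group for 24 h with dendritic cells. The labels mark the stimulator cells of both groups with LPS, a bacterial activator, and OVA, ovalbumin, and CD8+ T cells carrying CD69, an early sign of activation, were then sorted. Each group has 4 arrays, and no unstimulated T cells were among the samples. The labels do not say whether the 4 replicates of a group came from separate mice or cultures, so a p-value here reflects only how far these samples scatter, and that scatter may be technical.

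A cell that copies its genome has to deal with breaks and gaps at the replication fork. Homologous recombination copies the lost stretch from the sister chromatid, which exists in S and G2 phase. The Fanconi anaemia proteins unhook DNA crosslinks and hand the break to recombination, and mismatch repair corrects copying errors. Non-homologous end joining ligates ends without a template, base excision repair removes damaged or misplaced bases, and kinases such as Atm and Chek1 halt the cell cycle while damage persists. Activated T cells divide fast, and many repair genes are known to be transcribed most in dividing cells.

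Most tested repair genes were higher in cB cells, while the mismatch repair gene Msh6 and the recombination gene Rad52 were slightly higher in DC cells. Of the 36 members, 25 were tested because 4 or more of the 8 arrays detected them (deposited detection p below 0.05), and 11 were not. At an adjusted p below 0.05 (limma, Benjamini-Hochberg over all 7167 genes tested), 19 of the 25 were higher in cB cells, 2 were higher in DC cells and 4 did not pass. Of all genes tested, 61.4% passed, with 29.8% higher in cB cells and 31.6% higher in DC cells. The median log2 difference, cB minus DC, was 1.66 over the 25 members and -0.03 over all genes tested. The median over members depended on the treatment of the array background, at 1.17 with a larger offset, 0.78 in the authors' normalized values, 0.71 with no correction and 0.31 with a background estimated from all genes. The authors' values hold 25 of the members, with Blm, which was not tested here, in place of Chek2. In 19 members all cB arrays lay above all DC arrays, a pattern seen in 27.7% of all genes tested, and in 1 member all DC arrays lay above all cB arrays, against 29.1% of all genes. Of the 25, 6 were detected on no DC array and passed the filter through the cB arrays alone, so they had to differ. Among the 11 members detected on all 8 arrays, 8 were higher in cB cells, 2 were higher in DC cells and 1 did not pass, with a median of 0.67. The RNA is that of whole sorted populations, in which fewer cells with a transcript and less transcript per cell cannot be told apart.

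**Figure D1:**
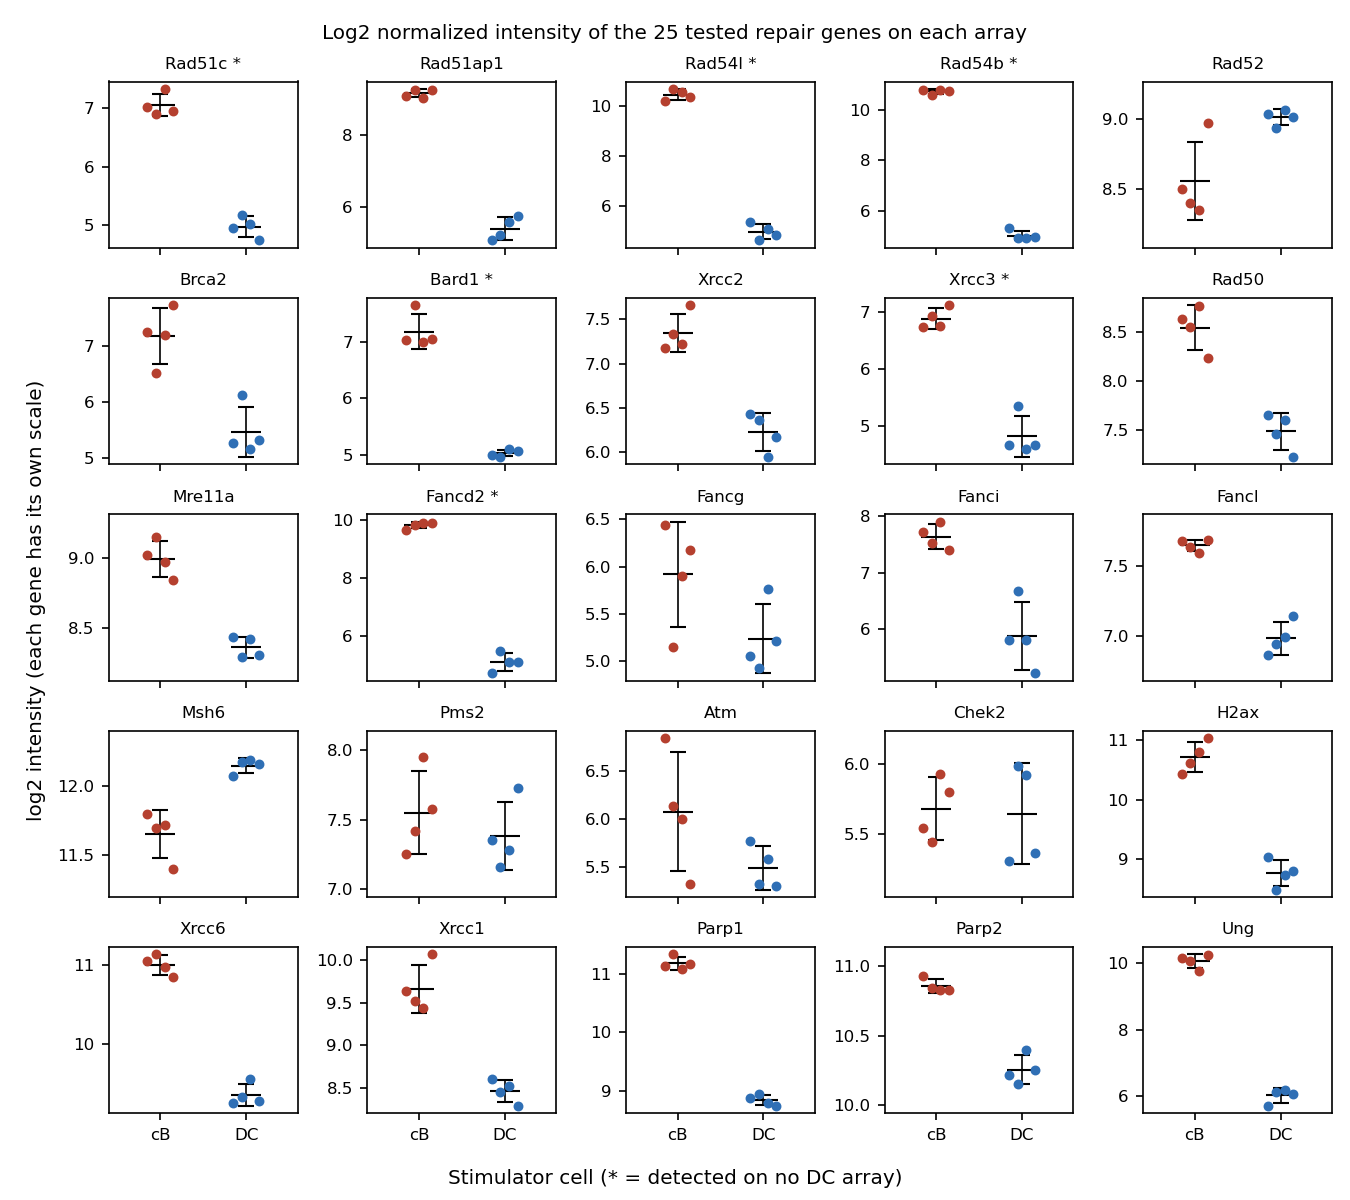
Log2 normalized intensity (vertical axes, a scale of its own for each gene) of the 25 tested repair genes on the 4 cB arrays (left, red) and the 4 DC arrays (right, blue), with the mean and SD of each group in black. The cB points lie above the DC points in 19 genes, Msh6 is the gene with all DC points above all cB points, and an asterisk marks the 6 genes detected on no DC array.

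The recombination route held the 2 largest differences of the tested members. Of its 9 tested genes 8 were higher in cB cells, against 29.8% of all genes tested. The median log2 difference of the 9 was 2.09. Of the 8, 5 (Rad54b, Rad54l, Rad51c, Bard1 and Xrcc3) were detected on no DC array and entered the test through the cB arrays alone, so their direction, and with it the count and the median, was set by the filter. All 8 differed by at least 2-fold as processed here, but Rad51c, Brca2, Bard1, Xrcc2 and Xrcc3 had log2 differences of 0.20 to 0.82 in the authors' normalized values, with no correction and with a background from all genes. Among all genes tested 24.5% were called with at least a 2-fold difference, in either direction. Rad54b, a DNA translocase of recombination, had log2 intensities of 10.81, 10.61, 10.79 and 10.75 on the cB arrays, against 5.30, 4.89, 4.90 and 4.94 on the DC arrays. None of the DC arrays detected it, and with the background used here the level in cB cells was at least 36.8-fold higher (fitted log2 difference 5.73 ± 0.12, SE, n = 4 per group, limma adjusted p = 1.3e-09). Such a bound sets the cB mean against, on each DC array, the gene's own value or the lowest detected intensity, whichever is higher, and it moves with the background treatment. Over 5 treatments the lowest bound for Rad54b was 8.41-fold. Its relative Rad54l, also a translocase, gave 10.18, 10.67, 10.55 and 10.37 on the cB arrays and 5.34, 4.61, 5.06 and 4.84 on the DC arrays. It too was undetected on every DC array and was at least 29.9-fold higher in cB cells with this background and at least 6.62-fold under every treatment (5.48 ± 0.17, limma adjusted p = 9.7e-09). Both translocase genes thus went the same way with no overlap between groups.

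Rad51ap1, which promotes strand pairing, had log2 intensities of 9.1, 9.27, 9.05 and 9.28 in cB cells and 5.07, 5.21, 5.59 and 5.74 in DC cells. It was detected on 2 of the 4 DC arrays, and the log2 difference was 3.77 ± 0.15 (limma adjusted p = 4.3e-08). Bard1, the partner of Brca1 in a ubiquitin ligase, stood at 7.03, 7.64, 7.0 and 7.04 in cB cells and 5.01, 4.97, 5.10 and 5.07 in DC cells. With no DC array detecting it, it was at least 3.11-fold higher in cB cells with this background, but the lowest bound over treatments was 1.17-fold (2.14 ± 0.15). Rad51c, which acts in recombination and crosslink repair, stood at 7.03, 6.90, 7.33 and 6.95 in cB cells and 4.94, 5.16, 5.02 and 4.73 in DC cells (2.09 ± 0.13). Its bound was 2.86-fold with this background and 1.14-fold at the lowest. The groups were apart for each of these genes, while the sizes for Bard1 and Rad51c rest on DC values within the background.

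Xrcc3, which forms a complex with the Rad51c protein, was likewise undetected on the DC arrays, with a bound of 2.55-fold with this background and 1.12-fold at the lowest. Xrcc2, a recombination factor detected on all 8 arrays, differed by 1.13 ± 0.15, and Brca2, a mediator of recombination, differed by 1.69 ± 0.27 with detection on all 4 cB arrays and 2 of the 4 DC arrays. All 3 passed the threshold. The exception was Rad52, a strand-annealing protein that in mammals is largely dispensable for recombination. Its log2 intensities were 8.5, 8.40, 8.35 and 8.97 in cB cells, against 9.04, 8.94, 9.07 and 9.02 in DC cells. The fourth cB array reached the range of the DC arrays, so the groups overlapped, and the difference was small (-0.46 ± 0.14, limma adjusted p = 0.016). Rad52 did not pass with arrays scaled to a common median (-0.44, limma adjusted p = 0.061) or with no normalization between arrays (-0.37, limma adjusted p = 0.19).

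The other 2 recombination members, Brca1 and Blm, were not tested. Brca1, which steers breaks into recombination, was undetected on all 8 arrays, with intensities of 149 to 178 in cB cells and 134 to 155 in DC cells. Blm, a helicase that dissolves joined recombination intermediates, had intensities of 1051, 731, 1121 and 1036 in cB cells, against 238, 216, 276 and 216 in DC cells. All 8 values exceeded the lowest intensity called detected on their array, which ranged from 173 to 195 on the cB arrays and from 179 to 190 on the DC arrays, yet the deposited detection p was below 0.05 on 1 cB array and on no DC array. When genes were chosen by intensity instead of the deposited p, an alternative added after the data were seen, Blm was 8.09-fold higher in cB cells (log2 difference 3.02 ± 0.12, limma adjusted p = 3.9e-08). With the authors' normalized values in the same model, the log2 difference was 1.96 ± 0.08 (limma adjusted p = 3.8e-11), and the cB and DC intensities did not overlap.

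**Figure D2:**
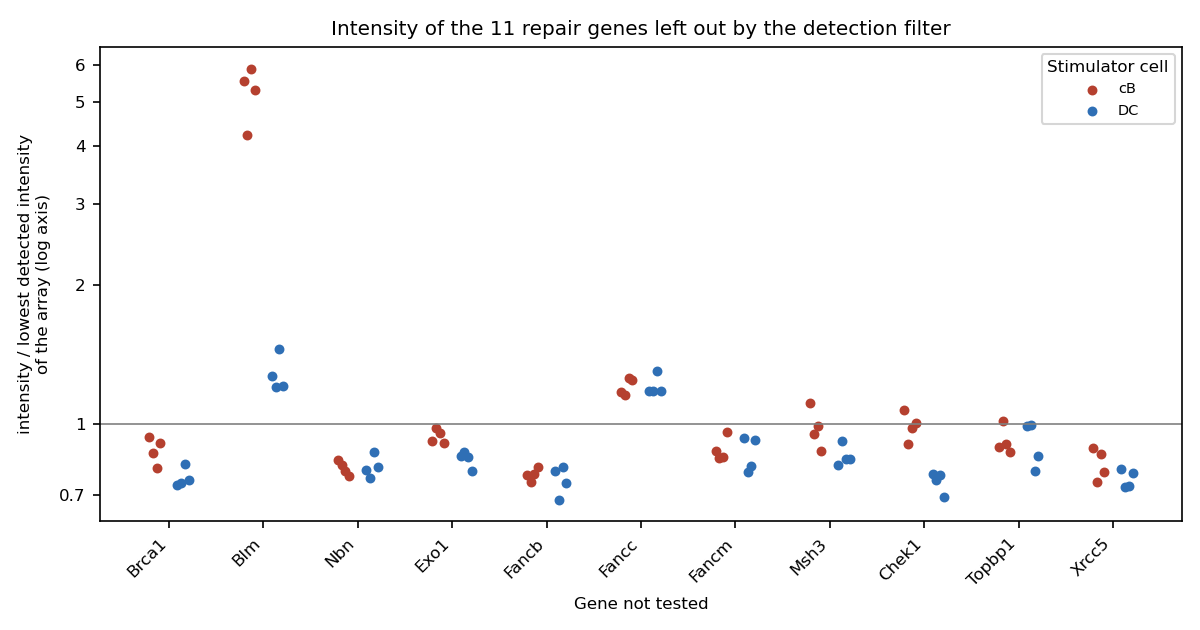
Intensity of the 11 repair genes not tested, divided by the lowest intensity called detected on the same array (vertical log axis, grey line at 1), for 4 cB arrays (red, left of each gene) and 4 DC arrays (blue, right). Blm and Fancc lie above the line on all 8 arrays and the other genes lie around or below it.

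Of the genes that sense and trim broken ends, Rad50 and Mre11a were tested and both were higher in cB cells. They encode partners in a complex that binds ends of broken DNA. Rad50 stood at 8.63, 8.55, 8.77 and 8.23 in cB cells and 7.65, 7.45, 7.60 and 7.22 in DC cells (log2 difference 1.06 ± 0.14, limma adjusted p = 0.00012). Mre11a, the nuclease, stood at 9.02, 9.15, 8.97 and 8.84 in cB cells and 8.43, 8.29, 8.42 and 8.30 in DC cells (0.64 ± 0.10, limma adjusted p = 0.00033). Neither gene's groups overlapped. Nbn, the third subunit of the complex, was undetected on all 8 arrays, with intensities of 141 to 158 in cB cells and 137 to 165 in DC cells. Exo1, an exonuclease of end resection and mismatch repair, was detected on 1 cB array. With no detection filter its log2 difference was 0.36 ± 0.10 (limma adjusted p = 0.027), on intensities of 169 to 181 in cB cells and 141 to 161 in DC cells that were all below the lowest detected intensity.

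In the Fanconi route 3 of 4 tested genes were higher in cB cells, against 29.8% of all genes tested. Of the 3, Fancd2 entered the test through the cB arrays alone, so its direction was set by the filter. Fancd2 and Fanci encode the subunits of the clamp that is placed on DNA at a crosslink, and Fancl encodes the ubiquitin ligase subunit that locks it. Fancd2 had log2 intensities of 9.65, 9.82, 9.89 and 9.90 in cB cells, against 4.73, 5.48, 5.12 and 5.10 in DC cells, none of which detected it. It was at least 19.4-fold higher in cB cells with the background used here, and at least 3.96-fold under every treatment (fitted log2 difference 4.71 ± 0.15, limma adjusted p = 1.3e-08). Fanci stood at 7.71, 7.53, 7.90 and 7.40 in cB cells and 5.81, 6.68, 5.81 and 5.22 in DC cells, with 3 of the 4 DC arrays detecting it (1.75 ± 0.27, limma adjusted p = 0.00028). Fancl, detected on all 8 arrays, stood at 7.68, 7.64, 7.60 and 7.69 in cB cells and 6.86, 6.94, 6.99 and 7.14 in DC cells (0.67 ± 0.09, limma adjusted p = 0.00017). The cB arrays lay above the DC arrays for all 3.

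Fancg, an adaptor of the Fanconi core complex, spread widely, at 6.44, 5.15, 5.90 and 6.18 in cB cells and 5.06, 4.93, 5.76 and 5.21 in DC cells. The groups overlapped, and its difference did not pass (0.68 ± 0.28, limma adjusted p = 0.057). It passed without cB replicate 2, which was the lowest cB array (0.93, limma adjusted p = 0.0051), and without DC replicate 3, the highest DC array (0.85, limma adjusted p = 0.026). It also passed with arrays scaled to a common median (0.71, limma adjusted p = 0.040) and with no normalization between arrays (0.78, limma adjusted p = 0.021). With the shared replicate numbers entered in the model as a block it passed as well (0.68, limma adjusted p = 0.036). Fancb and Fancm, a core subunit and a translocase, were undetected on all 8 arrays. Fancc, a core subunit, was detected on 1 cB and 2 DC arrays by the deposited p, although its intensities of 200 to 242 in cB cells and 211 to 247 in DC cells exceeded the lowest detected intensity on every array. Chosen by intensity, its log2 difference was -0.16 ± 0.09 and did not pass (limma adjusted p = 0.17).

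Of the mismatch repair genes tested, Msh6 was higher in DC cells and Pms2 did not pass. Msh6, which recognizes mispaired bases, had log2 intensities of 11.80, 11.70, 11.72 and 11.40 in cB cells, against 12.07, 12.17, 12.19 and 12.16 in DC cells. All 4 DC arrays were above all 4 cB arrays, and the difference was small (-0.49 ± 0.11, limma adjusted p = 0.0029). The direction held under every scaling tried, but the call was lost with arrays scaled to a common median (-0.36, limma adjusted p = 0.10) and with no normalization between arrays (-0.29, limma adjusted p = 0.26). Pms2, an endonuclease subunit, stood at 7.25, 7.42, 7.95 and 7.58 in cB cells and 7.35, 7.16, 7.28 and 7.73 in DC cells, which overlapped (0.17 ± 0.17, limma adjusted p = 0.41). Msh3, which recognizes larger loops, was detected on 2 cB arrays and on no DC array and was not tested.

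Among checkpoint genes the histone variant gene H2ax was higher in cB cells, and the kinase genes gave no call. H2ax, whose phosphorylated product marks chromatin around breaks, stood at 10.44, 10.62, 10.80 and 11.04 in cB cells and 9.03, 8.49, 8.74 and 8.81 in DC cells (log2 difference 1.96 ± 0.16, limma adjusted p = 3.7e-06). Atm, the kinase that responds to broken ends, stood at 6.84, 6.14, 6.0 and 5.33 in cB cells and 5.77, 5.32, 5.58 and 5.30 in DC cells. Its groups overlapped and it did not pass (0.58 ± 0.27, limma adjusted p = 0.089). Without cB replicate 4, the lowest cB array, its difference was 0.83 (limma adjusted p = 0.0086), and with no normalization between arrays it was 0.71 (limma adjusted p = 0.022). With the shared replicate numbers entered in the model as a block Atm passed as well (0.58, limma adjusted p = 0.028). Chek2, the kinase downstream of Atm, stood at 5.54, 5.44, 5.93 and 5.80 in cB cells and 5.30, 5.99, 5.92 and 5.36 in DC cells, with a difference of 0.04 ± 0.19 (limma adjusted p = 0.88).

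Chek1, the kinase of the replication checkpoint, was detected on no array and was not tested. Its intensities were 203, 156, 186 and 196 in cB cells, against 146, 136, 147 and 124 in DC cells, which do not overlap. With no detection filter its log2 difference was 0.79 ± 0.14 (limma adjusted p = 0.0018). Of the 4 cB intensities, 2 reached the lowest intensity called detected on their array, so this value lies at the edge of what the arrays could measure. Topbp1, an activator of the kinase Atr, was detected on 1 cB array, with intensities of 169 to 175 in cB cells and 150 to 186 in DC cells.

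The 1 end joining gene and the 4 base excision genes that were tested were all higher in cB cells, against 29.8% of all genes tested. Xrcc6, which encodes the Ku70 subunit that caps broken ends, stood at 11.06, 11.14, 10.98 and 10.85 in cB cells and 9.25, 9.33, 9.55 and 9.27 in DC cells (1.66 ± 0.11, limma adjusted p = 9.1e-07). Its partner gene Xrcc5, which encodes Ku80, was undetected on all 8 arrays, at intensities of 129 to 168 in cB cells and 131 to 150 in DC cells. The Ku pair was thus measured through Xrcc6 alone.

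Ung, the uracil-DNA glycosylase that removes uracil from DNA, had the largest difference outside recombination and the Fanconi route as processed here. Its log2 intensities were 10.15, 10.05, 9.75 and 10.22 in cB cells, against 5.72, 6.14, 6.19 and 6.08 in DC cells (4.01 ± 0.14, limma adjusted p = 2.1e-08). The deposited p detected Ung on 1 of the 4 DC arrays. Its DC intensities of 193 to 226 lay not far above the lowest detected intensity of those arrays, 179 to 190. With a background from all genes its log2 difference was 2.21. Parp1, which senses strand breaks and builds poly(ADP-ribose), stood at 11.13, 11.33, 11.08 and 11.17 in cB cells and 8.88, 8.95, 8.80 and 8.75 in DC cells (2.33 ± 0.10, limma adjusted p = 5.0e-08). It was 5.03-fold higher in cB cells and was detected on all 8 arrays. The scaffold gene Xrcc1 stood at 9.64, 9.52, 9.44 and 10.07 in cB cells and 8.60, 8.45, 8.52 and 8.29 in DC cells (1.2 ± 0.15). Parp2, the smaller relative of Parp1, stood at 10.93, 10.84, 10.83 and 10.83 in cB cells and 10.22, 10.15, 10.40 and 10.25 in DC cells (0.60 ± 0.09). All 4 genes passed with no overlap between groups, and the differences ran over a wide range, from 0.60 for Parp2 to 4.01 for Ung.

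**Figure D3:**
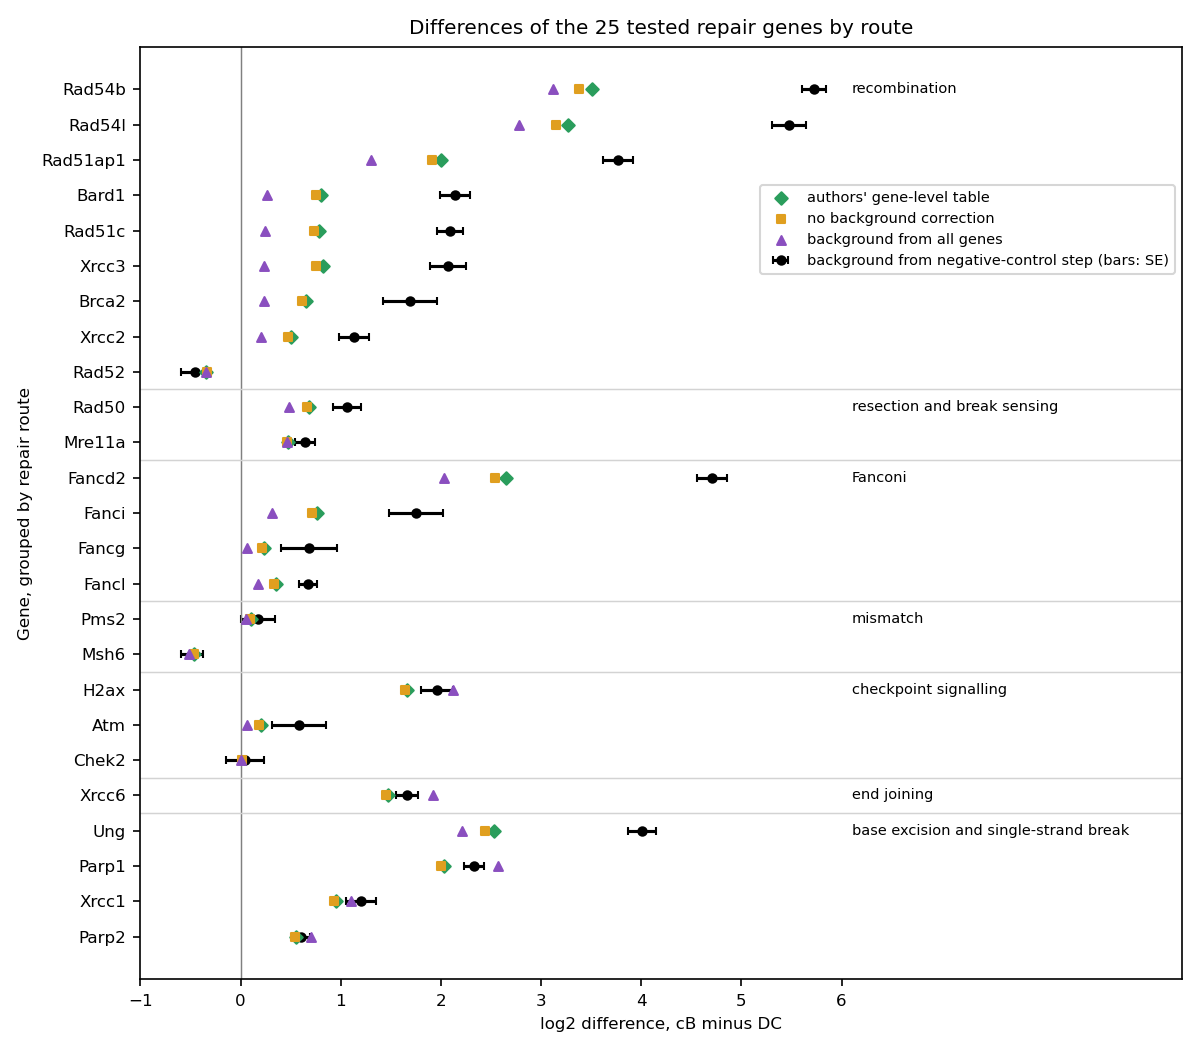
Log2 difference, cB minus DC (horizontal axis), of the 25 tested repair genes grouped by route, with SE bars for the background estimate used in the text and further symbols for the authors' deposited table, no background correction and the background from all genes. Dim genes such as Bard1 and Rad51c move from about 2 toward 0 with the treatment of the background, whereas Parp1, H2ax and Xrcc6 stay well above 1 in each.

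The sizes, more than the directions, depended on how the array background was treated. The comparison covered 4 treatments: the one used above, a background estimated from all genes, no correction, and the authors' normalized values. Under all 4, 8 members were at least 2-fold higher in cB cells: Rad54b, Rad54l, Rad51ap1, Fancd2, Ung, Parp1, H2ax and Xrcc6. In the authors' deposited values the log2 difference was 3.51 for Rad54b, 3.27 for Rad54l, 2.65 for Fancd2, 2.53 for Ung, 2.03 for Parp1 and 2.0 for Rad51ap1. Bard1 differed by 0.80 in the authors' values and by 0.26 with the background from all genes, and Rad51c by 0.78 and 0.24. As processed here, 16 tested members were called with a difference of at least 2-fold, all higher in cB cells. The number at least 2-fold higher in cB cells was 9 in the authors' values, 9 with all genes giving the background and 8 with no correction. The 9 in the authors' values include Blm (1.96), which was not tested here.

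Other repair genes, listed from general knowledge, went both ways. The table held 89 of them and 59 were tested, of which 26 were higher in cB cells, 12 higher in DC cells and 21 did not pass (median log2 difference 0.07). In all 38 of the 59 passed, a share close to the 61.4% of all genes tested. Over all genes 29.8% were higher in cB cells and 31.6% in DC cells. In the further genes of recombination and crosslink repair, 7 of 12 were higher in cB cells and 2 in DC cells. Examples of the 7 were the single-strand binding subunit gene Rpa2 (3.37 ± 0.14) and the Brca1-associated helicase gene Brip1. Brip1 was undetected in DC cells, with a bound of 5.13-fold higher in cB cells as processed here and 1.36-fold at the lowest. The 2 higher in DC cells were Rad51d (-1.58 ± 0.11) and Mus81 (-1.02 ± 0.13), both detected on all 8 arrays. Of the further checkpoint genes 7 of 8 were higher in cB cells and none in DC cells, with the replication checkpoint mediator gene Clspn, undetected in DC cells, at least 16.2-fold higher in cB cells as processed here and at least 3.22-fold under every treatment. In the further base excision list, 5 of 15 were higher in cB cells and 4 in DC cells, shares close to those over all genes. The DNA ligase gene Lig1 (4.07 ± 0.12) and the flap endonuclease gene Fen1 (3.06 ± 0.12), which also act at the replication fork, were among the 5.

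Nucleotide excision repair, which cuts out bulky lesions, went both ways, with 4 of 14 genes higher in cB cells and 4 in DC cells (median -0.04), shares close to the 29.8% and 31.6% over all genes tested. Its extremes were the endonuclease gene Ercc5 at -3.02 ± 0.18 and the damage sensor gene Ddb2 at 1.55 ± 0.14. Of 3 direct reversal genes, 2 were higher in DC cells, Mgmt (-1.73 ± 0.29) and Alkbh2 (-0.41 ± 0.14), and none in cB cells; the call for Alkbh2 was lost with no normalization between arrays (-0.26), with arrays scaled to a common median (-0.33), with no detection filter (-0.41) and without each of 5 single arrays. A further mismatch gene, Mlh3, was tested and did not pass (-0.19 ± 0.17). In the further end joining list, 3 of 6 were higher in cB cells, Aplf, Poll and Prkdc, and none in DC cells. Aplf was detected on no DC array, so its direction was set by the filter. Its bound was 1.26-fold higher in cB cells as processed here and 1.02-fold at the lowest. Replication and division genes were higher in cB cells in 15 of 15 tested, against 29.8% of all genes tested, with a median of 3.82. Of the 15, 5 were detected on no DC array and entered the test through the cB arrays alone, so their direction was set by the filter. Mcm5, a helicase subunit gene, differed by 4.92 ± 0.10. Whether the repair genes differ apart from this shift in replication genes was not tested.

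**Figure D4:**
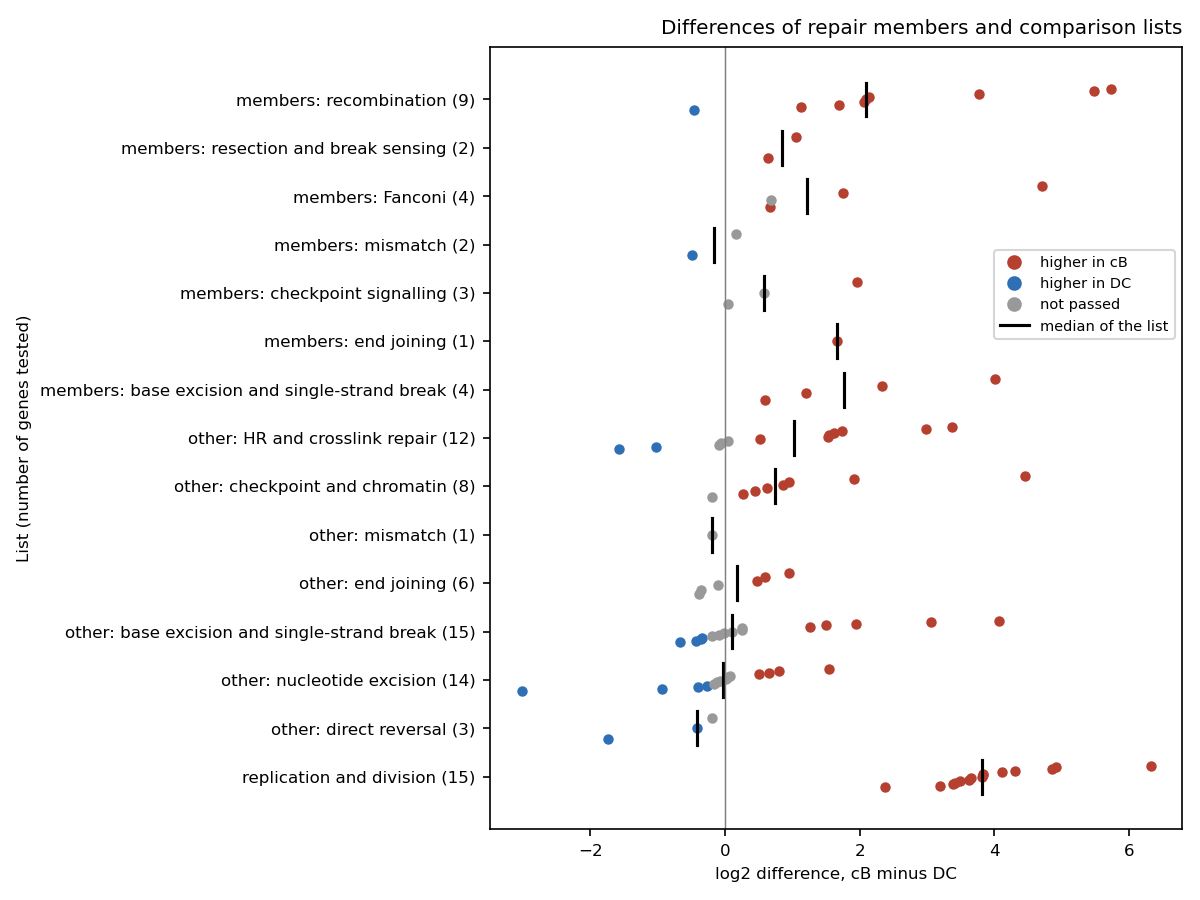
Log2 difference, cB minus DC (horizontal axis), of each tested gene in the 7 member routes, in 7 lists of other repair genes and in the replication and division list, coloured by call, with a black line at each list's median. Replication genes all lie above 2, recombination members reach beyond 5 with Rad52 below 0, and nucleotide excision genes spread around 0.

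Markers of the stimulator cells also moved with the groups, on the same arrays. Of 13 B cell marker rows, 6 were tested, 4 of which were higher in cB cells (among them Fcmr and Cd79b, undetected in DC cells, with lowest bounds over treatments of 1.31-fold and 1.21-fold) and 1, Pou2af1 (-1.27 ± 0.16), in DC cells. Pax5, Cd22 and Cr2 were undetected on all 8 arrays. The summed background-corrected intensity of the 13 was 826 to 1050 in cB cells and 799 to 964 in DC cells, which overlap. Pou2af1, which ran opposite to the 4, made up most of the sum in DC cells. Without it, an exclusion made after the values were seen, the other 12 rows summed to 589 to 693 in cB cells and 166 to 216 in DC cells. Of 18 dendritic and myeloid marker rows 7 were tested, 6 higher in DC cells, Zbtb46 (-2.18 ± 0.16) among them, and 1, Fscn1 (1.48), in cB cells. Their sum was 505 to 652 in cB cells and 1200 to 1750 in DC cells, and Itgax, Itgam, Csf1r and Flt3 were undetected on all 8 arrays. The part of stimulator cell RNA in the repair gene differences was not tested. Of 10 T cell marker genes 9 were detected on all 8 arrays, among them Cd8b1, a subunit of the sorted CD8, while Cd8a was undetected on all. Thy1 was higher in cB cells (0.90 ± 0.14) and Zap70 in DC cells (-0.88 ± 0.11).

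The promoters of the members were searched for sites of cell cycle regulators. RefSeq promoter sequences of build GRCm38.p6 were found for 29 of the 36 members, and the 250 bases before each start were read on both strands. E2F factors switch on S-phase genes, and their site was searched as any of TTTCCCGC, TTTCGCGC, TTTGCCGC and TTTGGCGC. At least 1 such word stood before 7 of the 29 members (24.1%) and before 583 of 27025 genes with a promoter in the table (2.16%). The 7 were Bard1, Brca2, Xrcc6, Fancg, Chek2, Topbp1 and Msh3, of which the first 3 were higher in cB cells. By call, the word was found in 3 of 14 members higher in cB cells (21.4%) and in 4 of 15 that were not called higher or not tested (26.7%). Among replication and division genes it stood before 4 of 15 (26.7%). The words of Msh3 overlap each other. The CCAAT box, letters CCAAT, stood before 15 of the 29 members (51.7%) and before 37.5% of all genes. By call, it stood before 5 of 14 members higher in cB cells (35.7%) and 10 of 15 of the others (66.7%). The CHR element, known from genes active in G2 phase and mitosis, was searched as TTTGAA and stood before 1 member, Bard1, and before 18.3% of all genes. A match is a run of letters and not a measured binding site.

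The promoters below are those of the 3 members higher in cB cells that hold an E2F-type word, and of Fancg, whose difference did not pass. Each is given 5′ to 3′ in the direction of the gene, ends at the base before the start, and carries the matched word or its reverse complement in capitals. The word begins 209 bases before the start in Bard1 (chr1:71102973-71103222, minus strand), 168 in Brca2 (chr5:150522371-150522620, plus strand), 46 in Xrcc6 (chr15:82016119-82016368, plus strand) and 52 in Fancg (chr4:43010302-43010551, minus strand).
Bard1: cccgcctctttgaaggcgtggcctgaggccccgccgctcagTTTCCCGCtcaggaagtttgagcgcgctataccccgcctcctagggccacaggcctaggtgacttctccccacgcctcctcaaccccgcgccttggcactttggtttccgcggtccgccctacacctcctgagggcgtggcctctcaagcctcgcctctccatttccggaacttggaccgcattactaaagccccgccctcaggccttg
Brca2: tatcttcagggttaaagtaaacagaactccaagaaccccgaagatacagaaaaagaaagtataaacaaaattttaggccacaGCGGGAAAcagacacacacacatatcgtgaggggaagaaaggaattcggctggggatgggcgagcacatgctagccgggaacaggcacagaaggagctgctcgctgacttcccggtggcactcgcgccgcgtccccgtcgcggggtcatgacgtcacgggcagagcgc
Xrcc6: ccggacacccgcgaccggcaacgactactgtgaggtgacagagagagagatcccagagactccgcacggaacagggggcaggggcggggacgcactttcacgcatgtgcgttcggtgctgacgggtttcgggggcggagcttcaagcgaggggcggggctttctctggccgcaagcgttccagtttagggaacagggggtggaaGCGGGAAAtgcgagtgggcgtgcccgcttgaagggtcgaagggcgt
Fancg: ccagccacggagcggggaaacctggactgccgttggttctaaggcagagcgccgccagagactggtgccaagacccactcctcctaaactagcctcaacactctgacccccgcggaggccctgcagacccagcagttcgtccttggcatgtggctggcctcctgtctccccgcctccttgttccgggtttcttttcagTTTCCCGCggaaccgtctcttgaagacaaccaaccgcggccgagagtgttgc
Bard1 and Fancg carry the same word in the same orientation. Bard1 was called higher in cB cells, in a direction set by the filter. Fancg did not pass but differed in the same direction (0.68 ± 0.28). The genes were not tested against each other.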

How the data were processed

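RNA of 8 samples of sorted OT-1 T cells, 4 cB and 4 DC by their titles, was hybridised to Illumina mouse beadchips, per the labels. The authors deposited average bead signals, an intensity on a linear scale with no background removed, for 18138 gene names, per the file headers, together with a detection p-value for each gene and array. They also deposited normalized log2 values by gene, which served as an alternative; how they were normalized is not stated in the labels or headers. Probe-level tables carry no gene names and were not used here. Names were updated through RefSeq gene symbols and synonyms of GRCm38.p6, and each gene is 1 row with no view of its single probes.

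Mean intensity per array was 602 to 824, and 38.3% to 40.8% of genes were detected. Array correlations were 0.979 to 0.990 within groups and 0.863 to 0.883 across them. The number of arrays limits the precision. In R 4.3.3 and limma 3.58.1, the background level was estimated from the 13929 genes whose detection p-values were whole multiples of 1 part in 798 (tolerance 0.001 of a step), and normexp correction used an offset of 16 before quantile normalization. Detection p-values of the other 4209 genes, 14 members among them, were not on this step. Genes detected on at least 4 arrays were fitted with lmFit and eBayes, cB minus DC, and 4397 (61.4%) passed an adjusted p below 0.05. A gene undetected on a whole group has a bound there, "at least N-fold", computed with the lowest detected value of on-step genes. It was recomputed, after the data were seen, under each background treatment and with the authors' normalized values. The fit was also run on simulated data, with no outcome reported here. A promoter was scanned over 250 bases.

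Alternatives were other background treatments, offset, normalization, filters, the replicate number as a block, and each array left out with the tested genes kept. Every member found is named. Values on every array are printed for up to 5 tested members of a route by lowest p, for members called higher in DC cells, and for the highest p of a route where it did not pass; other lists are shown by their lowest p values and marker lists also by their brightest gene. Array values of Blm and Chek1, DC intensities of Ung, the further marker genes, Prkdc, Rad51d and Mus81 were chosen after values were seen. So were the intensity ranges of untested members and the promoters printed. The B cell marker sum without Pou2af1 was also added after values were seen. The members and lists were chosen with earlier results of these data known.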

Additional observations from a re-analysis of the deposited data

Results flagged for a closer look

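The 4 arrays of each group were examined for 1 standing apart in each of the 36 members, 72 groups in all, and 4 were found, where chance gives about 1 in 20. For Bard1 cB replicate 2 stood at a log2 intensity of 7.64, with the other cB arrays between 7.0 and 7.04. For Parp2 cB replicate 1 stood at 10.93, with the others between 10.83 and 10.84. For Rad54b DC replicate 1 stood at 5.30 with the others between 4.89 and 4.94, and for Xrcc3 DC replicate 2 stood at 5.36 with the others between 4.59 and 4.67. Neither Rad54b nor Xrcc3 was detected on any DC array, so these values lie within the background. All 4 genes stayed past the threshold without the array named.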

How the results depend on the processing

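The count of members called, 21 as reported, was 21 with no correction, 21 with all genes giving the background and 21 with an offset of 50, of which 19 each were higher in cB cells. It was 22 (20 higher in cB cells) in the authors' table and with the intensity filter, and 24 (22 higher in cB cells) with no filter on 36 members. The authors' values hold Blm in place of Chek2, and the intensity filter adds Blm and Fancc. The median over tested members was 0.31 when all genes gave the background, 0.71 with no correction, 1.17 with an offset of 50, 0.78 in the authors' table and 0.73 with no detection filter, on 36 members. Among genes detected on all 8 arrays 10 members were called, 8 higher in cB cells, with a median of 0.67 on 11. This setting left out, among others, the 6 tested members detected on no DC array, whose median was 3.42. The count higher in DC cells was 0 with no normalization between arrays and 0 with median scaling, against 2; the cause was not tested. Leaving out single arrays gave 21 to 22 members called, 19 to 20 higher in cB cells, 2 higher in DC cells, a median of 1.5 to 1.66, 4139 to 4357 genes called and 33 to 37 other repair genes called. Chek2, which never passed, had differences of -0.08 to 0.15 with single arrays left out, with values of -0.05, 0.00, -0.08 and -0.06 without cB replicate 3, cB replicate 4, DC replicate 1 and DC replicate 4. Same-numbered cB and DC arrays deviated from their group means with correlations of 0.11, 0.13, 0.18 and 0.08. The labels do not say what a shared number stands for, and the numbers were not taken as pairs. With the replicate block 23 members were called, 21 higher in cB cells, Fancg (limma adjusted p = 0.036) and Atm (0.028) being the additions, and all 8 arrays correlated best with their own number, which is a hint from the data and not from the design. Differences near background are limited by signal, since 6 tested members were undetected in DC cells and 6 members were undetected on all 8 arrays.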
